A study of Mus musculus with 8 samples.

Results

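A set of 38 genes was higher in *Arid1a* KO than in WT Myc-CaP tumors with vehicle and remained above both WT groups when the tumors were treated with the NF-κB inhibitor JSH-23. The 38 genes were chosen by a rule on CPM (the reads of a gene per 1000000 counted reads of the sample) from the 39089 genes listed. The mean of the *Arid1a* KO samples with vehicle had to reach 5 CPM. The lower of these samples had to be at least 1.5 times the higher WT sample with vehicle, and the lower *Arid1a* KO sample with JSH-23 at least 1.5 times the highest of the 4 WT samples. The first conditions were met by 446 genes, so the 38 members were 8.52% of the genes raised in *Arid1a* KO tumors, and the other 408 served for comparison. Because every sample entered the rule, *Arid1a* KO against WT values of the members are descriptions without a test, and the JSH-23 comparisons were bounded by the rule, from below in *Arid1a* KO and from above in WT tumors.

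Myc-CaP is a mouse prostate cancer cell line that overexpresses *Myc*. The 4 groups of 2 samples were the control vector line (EV in the labels, WT here) with vehicle, WT with JSH-23, the line expressing sgARID1A (*Arid1a* KO) with vehicle, and *Arid1a* KO with JSH-23. All tumors grew under the skin of male FVB mice aged 6 weeks at inoculation by the labels, where the study's methods give 4 to 6 weeks. JSH-23, dissolved in DMSO and diluted in corn oil, or its vehicle was given daily by gavage from day 16 for 2 weeks. The study names the vehicle arm DMSO. EpCAM-positive, CD45-negative cells were sorted for RNA-seq. Whether the *Arid1a* KO cells were a clone or a pool, and whether the 2 samples of a group were separate tumors, is not given in the sources used here, so p-values measure only the spread between these samples, which may be technical.

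ARID1A is a DNA-binding member of SWI/SNF, a complex that moves nucleosomes at promoters and enhancers. NF-κB is a family of transcription factors that enter the nucleus on inflammatory stimulation and switch on chemokine, cytokine and adhesion genes, and JSH-23 interferes with the nuclear entry of its p65 subunit. The comparison asks which genes raised with *Arid1a* loss stay raised when that entry is inhibited, and RNA levels alone do not say through which factor a gene is controlled.

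Total counts were between 16401581 and 21972231 per sample. *Arid1a* itself, targeted by the guide RNA, was at 158 and 163 CPM in WT tumors with vehicle, 145 and 156 CPM in WT with JSH-23, 106 and 109 CPM in *Arid1a* KO with vehicle, and 89.7 and 91.0 CPM in *Arid1a* KO with JSH-23, so each *Arid1a* KO sample was below each WT sample while transcript remained. *Epcam*, the marker of the sort, had between 0 and 4 counts in every sample, so the defining transcript of an EpCAM-positive population was nearly absent. Other luminal epithelial markers differed among themselves: *Cdh1*, *Cldn7* and *Krt18* were at or below 0.947 CPM, *Cldn4* was between 6.77 and 11.6 CPM, *Hoxb13* between 53.9 and 85.2 CPM and *Foxa1* between 154 and 226 CPM. *Ptprc*, which encodes CD45, was at or below 0.562 CPM. The mesenchymal genes *Fn1* and *Vim* were high, with *Fn1* between 16430 and 18546 CPM. *Vim* was at 1160 and 1166 CPM in WT and 558 and 552 CPM in *Arid1a* KO with vehicle. With JSH-23 it was at 1796 and 1768 CPM in WT and 944 and 934 CPM in *Arid1a* KO. The 2 samples of each group lay very close together, with a shared biological coefficient of variation of 1.57% and a chi-square per degree of freedom of 1.46 to 1.57, above the 1 of pure sampling noise. WT sample 2 with JSH-23 stood apart in low-count markers of other cells, though its *Arid1a* level was that of WT. The neurofilament genes *Nefl* and *Nefm* had 51 and 60 counts in it, 0 in the other WT samples and 37 to 64 in each *Arid1a* KO sample, and the macrophage marker *Adgre1* had 1 count in it, 17 to 19 in the other WT samples and 0 to 2 in *Arid1a* KO samples.

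With TMM scaling, the share of members that changed with JSH-23 was not below that of all genes tested. In *Arid1a* KO tumors, 8 of the 38 members (21.1%) fell with JSH-23 and 5 (13.2%) rose, by the criterion of at least 1.5-fold and an adjusted p under 0.05 in edgeR's quasi-likelihood test, beside 16.6% of all 13921 genes tested that fell and 9.57% that rose. The other 25 members (65.8%) passed in neither direction, beside 73.8% of all genes tested. The median JSH-23 log2 fold change of the members was 0.03, between -2.35 and 1.59, beside -0.01 over all genes tested. Among the 408 other raised genes, 269 (65.9%) fell and 2 (0.490%) rose, with a median of -0.86. This contrast between members and other raised genes follows from the rule and is no independent result. With scaling by library size alone, which moved the median of all genes to -0.13, the members divided into 8 lower and 2 higher, with a median of -0.09. By that scaling, 20.8% of all genes tested fell and 6.08% rose, so the opening statement depends on the scaling.

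In WT tumors, for which the rule set only an upper limit, 5 members (13.2%) fell with JSH-23 and 6 (15.8%) rose, beside 10.2% and 5.70% of all genes tested. The median log2 fold change was -0.14. Without WT sample 2 with JSH-23, more members were called lower in WT tumors. That group then lacked a replicate, so the number is not given. The rule without this sample gave 43 genes that included all 38. A total of 19 members passed in neither genotype, 3 fell in both (*Plet1*, *Slc16a3* and *Ehf*), and 2 rose in both (*Mgp* and *2610035D17Rik*). None fell in one genotype and rose in the other by this criterion. These joint counts were not made over all genes tested, so they describe the members only. The plot of JSH-23 effects by genotype shows these groups.

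**Figure D1:**
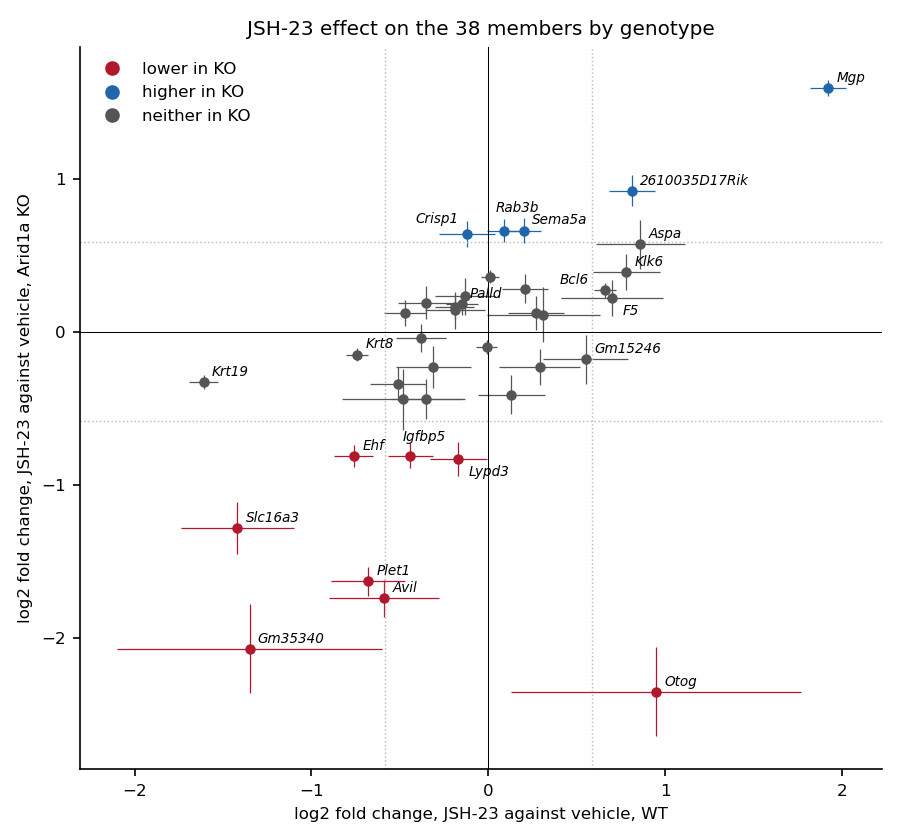
JSH-23 log2 fold change of the 38 members in WT tumors (horizontal axis) and in *Arid1a* KO tumors (vertical axis), with standard errors as bars and dotted lines at 1.5-fold; colors give the call in *Arid1a* KO tumors. *Mgp* stands at the upper right (1.92 and 1.59), *Krt19* at the far left (-1.61 and -0.33), and 8 members lie below the lower dotted line.

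The label of resistance held to differing degrees. The share of the *Arid1a* KO difference that was kept was computed as the log2 difference between *Arid1a* KO tumors with JSH-23 and WT tumors with vehicle, as a percent of the difference with vehicle in both. Its median over the members was 91.9%, and it ran from 32.0% for *Gm35340* to 215% for *2610035D17Rik*. In 16 members the share was over 100%, and in 8 it was under 50%, so these 8 lost more than they kept although they stayed above both WT groups. These 8 were the members that fell with JSH-23. Measured against WT tumors with JSH-23, the median was 87.4%, with 15 members over 100% and 2 under 50%. The other raised genes had medians of -3.28% and 24.6%. As ratios of group means, the members were 1.57 to 38.9 times higher in *Arid1a* KO than in WT with vehicle (median 2.82, the largest for *Otog*, which had 5 and 0 counts in WT) and 1.58 to 7.26 times higher with JSH-23 (median 2.51). The ratio widened with JSH-23 in 15 members and narrowed in 23. Of all genes tested, 7.48% were called higher in *Arid1a* KO than in WT and 5.17% lower when both had vehicle, and 3.82% higher and 4.81% lower when both had JSH-23.

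**Figure D2:**
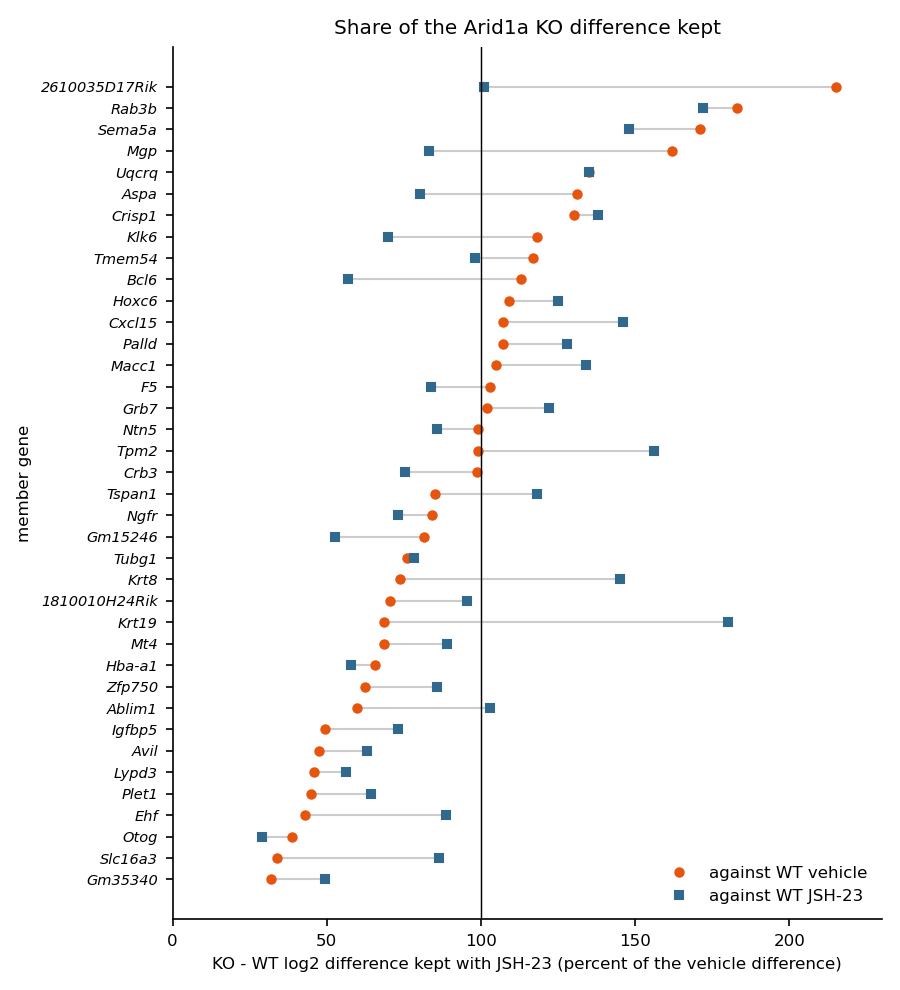
Percent of the *Arid1a* KO against WT log2 difference with vehicle that was kept with JSH-23, for each of the 38 members, against WT with vehicle (orange circles) and WT with JSH-23 (blue squares); the vertical line marks 100%. *Krt19* moves from 68.4% to 180% and *2610035D17Rik* from 215% to 101% with the choice of WT group.

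The members are grouped below by what they encode, a grouping made after their values were seen. Of all genes tested, 16.6% fell and 9.57% rose with JSH-23 in *Arid1a* KO tumors, and 10.2% fell and 5.70% rose in WT tumors. Beside these shares, the counts in such small groups are descriptions and do not set a group apart. Of 7 genes for keratins, junction and surface proteins of epithelia, 2 fell with JSH-23 in *Arid1a* KO tumors and none rose. *Krt19*, a keratin of luminal and simple epithelia, was at 41.5 and 37.1 CPM in WT tumors with vehicle, 11.6 and 13.9 CPM in WT with JSH-23, 107 and 105 CPM in *Arid1a* KO with vehicle, and 76.2 and 78.6 CPM in *Arid1a* KO with JSH-23. The 4 groups did not overlap, and WT tumors with JSH-23 were the lowest. *Krt19* fell with JSH-23 in WT tumors (log2 fold change -1.61, standard error 0.082, adjusted p = 7.95e-28), while in *Arid1a* KO tumors it changed by -0.33 (standard error 0.045, adjusted p = 2.53e-09), short of 1.5-fold. The *Arid1a* KO to WT ratio of *Krt19* was 2.69 with vehicle and 6.06 with JSH-23.

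*Krt8*, another simple epithelial keratin, followed the same order. It was at 60.4 and 51.7 CPM in WT with vehicle, 33.4 and 32.9 CPM in WT with JSH-23, 116 and 115 CPM in *Arid1a* KO with vehicle, and 93.4 and 97.7 CPM in *Arid1a* KO with JSH-23. The JSH-23 log2 fold change of *Krt8* was -0.74 in WT (adjusted p = 3.49e-17) and -0.15 in *Arid1a* KO tumors (adjusted p = 0.00156, short of 1.5-fold), and its *Arid1a* KO to WT ratio was 2.06 with vehicle and 2.88 with JSH-23. *Krt18*, the usual partner of *Krt8*, had 4 to 18 counts in every sample. The basal keratin *Krt15* was also raised in *Arid1a* KO tumors but was no member. With vehicle it was at 28.5 and 29.3 CPM in WT and at 60.6 and 56.3 CPM in *Arid1a* KO. Its 27.1 and 26.8 CPM in *Arid1a* KO with JSH-23 lay below WT with vehicle. They lay above WT with JSH-23, which was at 7.87 CPM in each sample.

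*Plet1*, a surface marker of progenitor epithelia, fell in both genotypes, although its WT call was lost without WT sample 1 with vehicle or WT sample 1 with JSH-23. It was at 4.38 and 3.57 CPM in WT with vehicle, 1.97 and 2.99 CPM in WT with JSH-23, 37.8 and 37.8 CPM in *Arid1a* KO with vehicle, and 10.9 and 11.5 CPM in *Arid1a* KO with JSH-23. Its log2 fold change was -1.63 (standard error 0.092, adjusted p = 8.73e-26) in *Arid1a* KO and -0.68 (standard error 0.21, adjusted p = 0.00417) in WT tumors, and 44.9% of the difference was kept. *Lypd3*, a GPI-anchored surface protein, fell from 18.7 and 19.2 to 9.61 and 9.88 CPM in *Arid1a* KO tumors (adjusted p = 2.14e-10) and was between 4.33 and 5.65 CPM in WT tumors. *Crb3*, a component of the apical polarity complex, was at 12 and 10.8 CPM in *Arid1a* KO with vehicle and 10.9 and 11.7 CPM with JSH-23, so these groups overlapped. The tetraspanin *Tspan1* and the membrane protein *Tmem54* passed in neither genotype, with 85.1% and 117% of their difference kept.

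Of 4 transcription factors, 1 fell with JSH-23 in *Arid1a* KO tumors and none rose. *Bcl6*, a zinc-finger repressor best known from germinal-center B cells, was at 29.2 and 31.8 CPM in WT with vehicle, 47.5 and 48.0 CPM in WT with JSH-23, 67.5 and 68.7 CPM in *Arid1a* KO with vehicle, and 74.6 and 76.0 CPM in *Arid1a* KO with JSH-23. The order of the groups was without overlap. *Bcl6* rose with JSH-23 in WT tumors (log2 fold change 0.66, standard error 0.063, adjusted p = 1.46e-14) and changed by 0.27 in *Arid1a* KO tumors, so its *Arid1a* KO to WT ratio was 2.23 with vehicle and 1.58 with JSH-23. Its WT call was lost with limma on TPM and in a test against 1.5-fold itself. *Ehf*, an ETS factor of epithelial cells, fell in both genotypes, from 45.8 and 44.3 to 24.1 and 23 CPM in *Arid1a* KO tumors (log2 fold change -0.81, adjusted p = 2.46e-16) and from 14.7 and 13.9 to 8.32 and 8.41 CPM in WT tumors (-0.76, adjusted p = 3.60e-08). *Ehf* kept 43.1% of its difference against WT with vehicle and 88.6% against WT with JSH-23. The homeobox gene *Hoxc6* and the epidermal differentiation factor *Zfp750* passed in neither genotype, at 12.1 and 14.2 CPM and at 7.34 and 8.10 CPM in *Arid1a* KO with JSH-23, except for a fall of *Zfp750* in *Arid1a* KO tumors in limma on TPM.

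The largest role group was that of 8 secreted proteins, in which 2 fell and 2 rose in *Arid1a* KO tumors. *F5*, coagulation factor V, had the largest ratio of the lowest *Arid1a* KO to the highest WT sample, 5.22. *F5* was at 1.14 and 1.25 CPM in WT with vehicle, 1.91 and 1.95 CPM in WT with JSH-23, 10.2 and 10.5 CPM in *Arid1a* KO with vehicle, and 10.3 and 11.7 CPM in *Arid1a* KO with JSH-23. Its JSH-23 log2 fold change was 0.22 (standard error 0.12, adjusted p = 0.109) in *Arid1a* KO tumors, with overlapping groups, and 0.70 (standard error 0.29, adjusted p = 0.0333) in WT tumors, from 19 and 21 to 34 and 32 counts, a call lost with DESeq2 and whenever a WT sample was left out.

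*Mgp*, matrix Gla protein, an inhibitor of calcification, rose in both genotypes. It was at 6.25 and 7.68 CPM in WT with vehicle, 25.3 and 27.1 CPM in WT with JSH-23, 38.5 and 36.2 CPM in *Arid1a* KO with vehicle, and 103 and 103 CPM in *Arid1a* KO with JSH-23. Each group was above the one before it. The log2 fold change with JSH-23 was 1.59 (standard error 0.054, adjusted p = 1.38e-38) in *Arid1a* KO and 1.92 (standard error 0.10, adjusted p = 1.13e-26) in WT tumors. *Mgp* therefore kept 162% of the difference against WT with vehicle but 83.2% against WT with JSH-23.

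*Crisp1*, a cysteine-rich secretory protein of the epididymis, rose with JSH-23 in *Arid1a* KO tumors and not by the criterion in WT tumors. It was at 6.01 and 5.71 CPM in WT with vehicle, 5.79 and 4.82 CPM in WT with JSH-23, 20.3 and 19.5 CPM in *Arid1a* KO with vehicle, and 28.2 and 28.6 CPM in *Arid1a* KO with JSH-23 (log2 fold change 0.64, standard error 0.084, adjusted p = 5.46e-10). The groups of *Arid1a* KO tumors did not overlap. Its relative *Crisp3* had 0 counts in all 8 samples.

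*Otog*, otogelin of the acellular membranes of the inner ear, fell with JSH-23 in *Arid1a* KO tumors, from 6.49 and 5.18 CPM to 0.982 and 1.09 CPM (log2 fold change -2.35, standard error 0.29, adjusted p = 7.22e-11). As WT tumors had 5 and 0 counts with vehicle and 6 and 4 with JSH-23, its WT level was near the limit of 3 counts and its ratios to WT are imprecise. *Igfbp5*, which binds insulin-like growth factors, fell from 34.8 and 40.5 CPM to 19.6 and 19.9 CPM in *Arid1a* KO tumors (log2 fold change -0.81, adjusted p = 3.02e-14) and was between 7.19 and 10.6 CPM in WT tumors. The kallikrein protease *Klk6* rose with JSH-23 in WT tumors, from 2.64 and 3.75 to 5.23 and 5.67 CPM (log2 fold change 0.78, adjusted p = 0.000241, a call lost without WT sample 1 with vehicle), and changed by 0.39 in *Arid1a* KO tumors. The chemokine *Cxcl15* and the netrin *Ntn5* passed in neither genotype and overlapped between vehicle and JSH-23 in *Arid1a* KO tumors, *Cxcl15* at 11.9 and 13.1 against 12 and 14.1 CPM and *Ntn5* at 6.55 and 5.18 against 6.67 and 4.96 CPM.

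**Figure D3:**
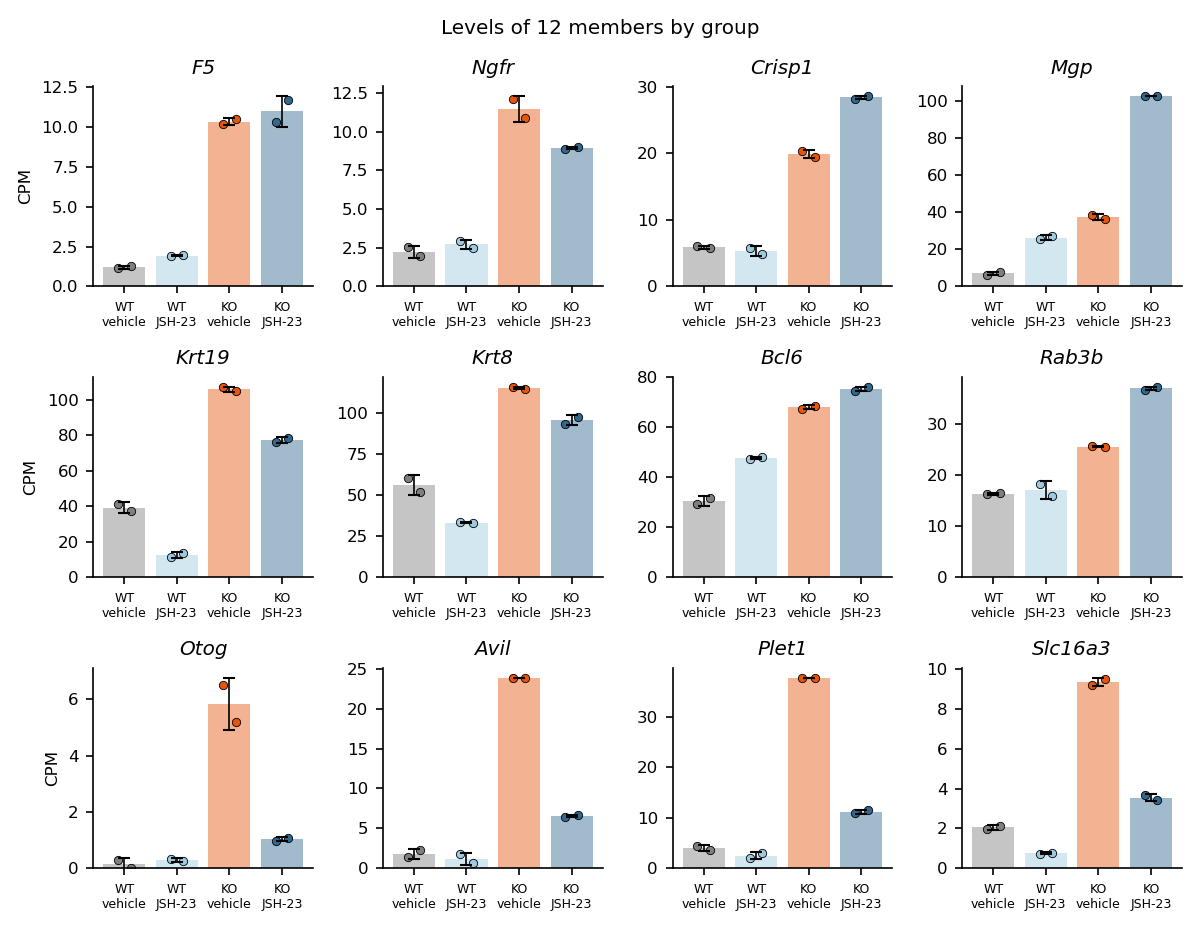
Level in CPM (vertical axis from 0) of 12 members in the 4 groups; bars are means of 2 samples, points the samples and error bars the SD. *F5* stays at 10.3 and 11.7 CPM in *Arid1a* KO tumors with JSH-23, *Mgp* reaches 103 CPM, and *Otog*, *Avil*, *Plet1* and *Slc16a3* fall toward WT.

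Of 5 genes for receptors, signaling and vesicle proteins, 2 rose and none fell in *Arid1a* KO tumors, and none passed in WT tumors. *Ngfr*, the p75 neurotrophin receptor, was at 2.52 and 1.96 CPM in WT with vehicle, 2.92 and 2.50 CPM in WT with JSH-23, 12.1 and 10.9 CPM in *Arid1a* KO with vehicle, and 8.89 and 9.01 CPM in *Arid1a* KO with JSH-23. It kept 84.0% of its difference, and its change of -0.23 with JSH-23 (standard error 0.12, adjusted p = 0.0925) did not pass. *Rab3b*, a small GTPase of secretory vesicles, was at 16.2 and 16.4 CPM in WT with vehicle, 18.3 and 15.9 CPM in WT with JSH-23, 25.6 and 25.5 CPM in *Arid1a* KO with vehicle, and 36.7 and 37.2 CPM in *Arid1a* KO with JSH-23 (log2 fold change 0.66, standard error 0.074, adjusted p = 2.29e-12).

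*Sema5a*, a transmembrane semaphorin of axon guidance, had nearly the same profile as *Rab3b*. It rose from 22.8 and 22.5 to 32.9 and 32.6 CPM in *Arid1a* KO tumors (log2 fold change 0.66, adjusted p = 2.06e-11) and was between 12.9 and 16.5 CPM in WT tumors. *Crisp1*, *Rab3b* and *Sema5a* lay just over 1.5-fold, and none was called with library size scaling alone (0.51, 0.53 and 0.53) or in a test against 1.5-fold itself. *Grb7*, an adaptor of receptor tyrosine kinases, and *Macc1* overlapped between vehicle and JSH-23 in *Arid1a* KO tumors, at 11 and 10.4 against 10.6 and 11 CPM and at 24.8 and 23.7 against 25.9 and 23.8 CPM.

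Of 5 cytoskeletal genes, 1 fell in *Arid1a* KO tumors and none rose. *Avil*, advillin, an actin-severing protein of sensory neurons and tuft cells, was at 1.38 and 2.26 CPM in WT with vehicle, 1.74 and 0.610 CPM in WT with JSH-23, 23.9 and 23.9 CPM in *Arid1a* KO with vehicle, and 6.46 and 6.64 CPM in *Arid1a* KO with JSH-23. Its fall of -1.74 on the log2 scale (standard error 0.12, adjusted p = 5.63e-21) left 47.6% of the difference. *Tubg1*, the gamma-tubulin of microtubule nucleation, was at 83.9 and 89.3 CPM in *Arid1a* KO with vehicle, 77.4 and 71.5 CPM in *Arid1a* KO with JSH-23 and between 43.8 and 47.3 CPM in WT tumors. The actin-associated *Palld*, *Tpm2* and *Ablim1* passed in neither genotype, with 107%, 99.0% and 59.7% of their difference kept.

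Of 5 genes of metabolism and transport, 1 fell in *Arid1a* KO tumors and none rose. *Slc16a3*, the lactate exporter MCT4, fell in both genotypes. It was at 1.98 and 2.14 CPM in WT with vehicle, 0.731 and 0.793 CPM in WT with JSH-23, 9.23 and 9.52 CPM in *Arid1a* KO with vehicle, and 3.67 and 3.41 CPM in *Arid1a* KO with JSH-23. The log2 fold changes were -1.28 (standard error 0.17, adjusted p = 4.28e-10) in *Arid1a* KO and -1.42 (standard error 0.32, adjusted p = 0.00014) in WT tumors, so 33.8% of the difference was kept against WT with vehicle and 86.3% against WT with JSH-23.

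*Uqcrq*, a subunit of respiratory complex III, had the highest CPM of the members in *Arid1a* KO with JSH-23, not corrected for gene length, 118 and 110 CPM, after 94.8 and 99.0 CPM with vehicle and between 58.3 and 63.2 CPM in WT tumors. With CPM on TMM-scaled library sizes, *Uqcrq* and *Gm35340* fell out of the 38. The change of *Uqcrq* of 0.36 (standard error 0.040, adjusted p = 2.79e-12) was short of 1.5-fold. *Aspa*, aspartoacylase, rose with JSH-23 in WT tumors, from 2.04 and 1.61 to 3.77 and 2.74 CPM (log2 fold change 0.86, adjusted p = 0.00249, a call lost without WT sample 1 with JSH-23), and changed by 0.57 in *Arid1a* KO tumors, from 4.95 and 5.78 to 8.06 and 6.64 CPM. The metallothionein *Mt4* went from 5.18 and 5.18 CPM to 3.46 and 3.55 CPM with JSH-23 in *Arid1a* KO tumors without passing, except in limma on TPM. *Hba-a1*, an alpha globin of red cells, was at 3.24 and 4.46 CPM in WT and 11.5 and 11.4 CPM in *Arid1a* KO with vehicle. With JSH-23 it was at 4.44 and 3.90 CPM in WT and 8.47 and 7.37 CPM in *Arid1a* KO.

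The other 4 erythroid markers did not move with *Hba-a1*: with vehicle their summed level was between 2.10 and 3.75 CPM in WT and between 1.5 and 2.51 CPM in *Arid1a* KO tumors, and with JSH-23 between 1.77 and 3.03 CPM in both. *Hba-a2*, a near-identical copy that could share reads with *Hba-a1*, had 0 to 2 counts in every sample, so the value of *Hba-a1* is uncertain as to the copy. In bulk samples, fewer cells of a type and less RNA per cell cannot be told apart. Of 18 neuron and neuroendocrine markers, 7 could be tested, and 4 of these were higher and none lower in *Arid1a* KO than in WT with vehicle, with a median log2 fold change of 2.09. *Nefl* and *Nefm*, at 0 in WT with vehicle, were at most at 3.36 CPM in *Arid1a* KO. With vehicle the summed level of the list, mostly *Uchl1*, was between 474 and 484 CPM in WT and between 418 and 435 CPM in *Arid1a* KO. With JSH-23 it was between 466 and 513 CPM over both genotypes. Of 16 leukocyte markers, 7 could be tested, and 5 were lower and 1 higher in *Arid1a* KO than in WT with vehicle, with a median of -2.65. Their sum was between 10.2 and 24.9 CPM over the 8 samples, with *Ly6g* and *Cd8a* at 0 in all, and that of endothelial markers at most 4.56 CPM. Fibroblast markers summed to between 62.7 and 73.6 CPM in the other groups and to 41.5 and 47.9 CPM in *Arid1a* KO with JSH-23. The part of these markers in the members' values was not tested.

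The last 4 members are noncoding or have names that give no function. *Gm35340*, a noncoding RNA with 1 to 8 counts in the WT samples, fell from 4.90 and 5.13 CPM to 1.09 CPM in each *Arid1a* KO sample with JSH-23 (log2 fold change -2.07, standard error 0.29, adjusted p = 2.28e-09). The noncoding *2610035D17Rik* rose in both genotypes, from 10.9 and 10.6 to 17.7 and 19.5 CPM in *Arid1a* KO (log2 fold change 0.92, adjusted p = 2.22e-12) and from 6.43 and 6.78 to 11.7 and 11.2 CPM in WT tumors (0.81, adjusted p = 1.74e-07). Both WT samples with JSH-23 thereby lay above both *Arid1a* KO samples with vehicle. *1810010H24Rik* and *Gm15246* passed in neither genotype, with 70.5% and 81.4% of their difference kept.

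**Figure D4:**
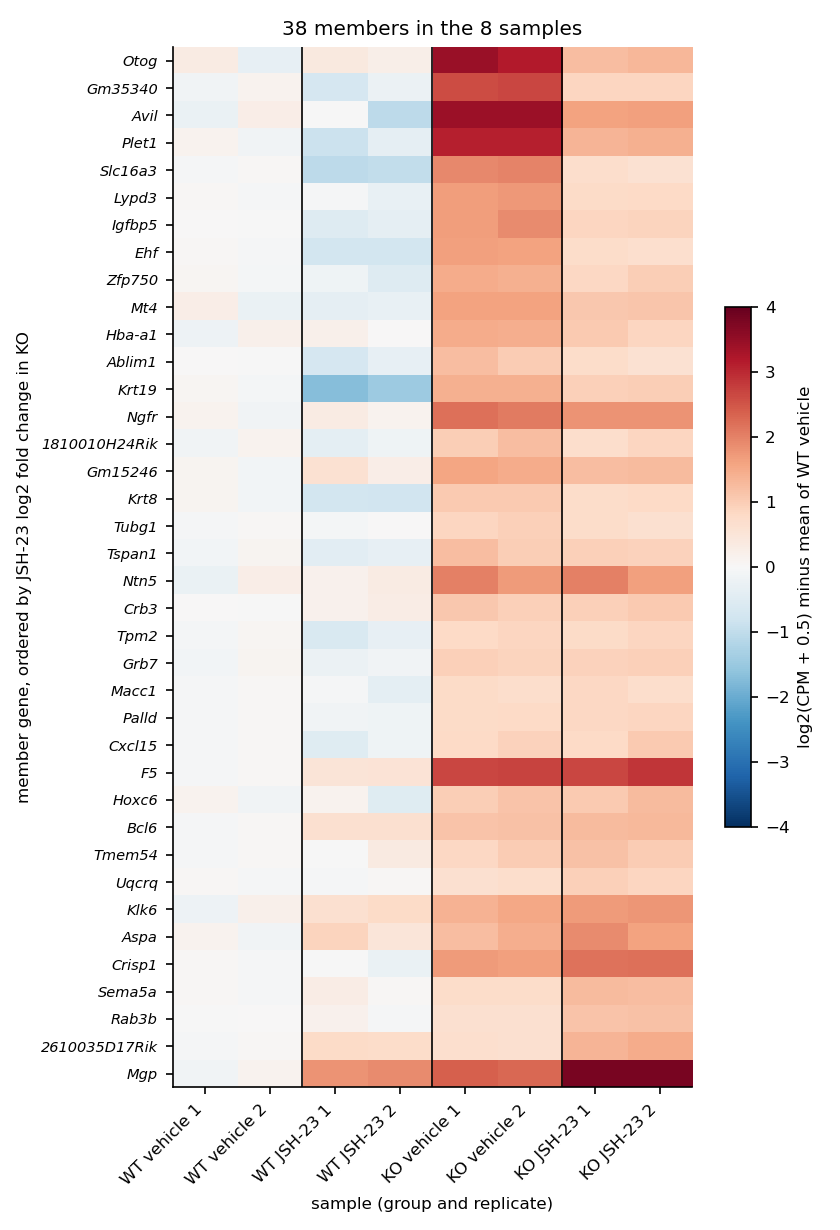
log2(CPM + 0.5) of the 38 members (rows, ordered by the JSH-23 log2 fold change in *Arid1a* KO tumors) in the 8 samples (columns), relative to the mean of WT with vehicle; red is higher and blue lower. The 4 *Arid1a* KO columns are red in every row, the uppermost rows fade with JSH-23 (*Otog*, -2.35), the lowest deepen (*Mgp*, 1.59), and *Krt19* is the bluest row in WT with JSH-23.

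*2610035D17Rik*, *Tubg1* and *1810010H24Rik* were the members just inside the limit, with the lower *Arid1a* KO sample with JSH-23 at 1.509, 1.512 and 1.544 times the highest WT sample. *Mapk13*, *F3* and *Cycs* were just outside, at 1.441, 1.428 and 1.425 times. Of the 408 other raised genes, 327 missed the limits of both WT groups, 47 missed only that of WT with vehicle and 34 only that of WT with JSH-23. The set depends on scaling and unit. CPM on TMM-scaled library sizes gave 42 genes, 36 of them among the 38, and the same rule on the deposited TPM values, which are corrected for gene length, gave 28 genes, of which 19 were among the 38.

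No member was on any of 22 pathway lists, including the NF-κB targets, but these lists held only 2.03% of all genes tested, so the count of 0 does not set the members apart. The count also depends on the floor of 5 CPM. The listed genes *Car12* and *Hes1* lay below this floor but met both fold clauses, with 1 to 3 and 2 to 5 counts in the WT samples. The 10 lists of cell type markers held 3 members (*Krt8*, *Krt19* and *Hba-a1*) and 0.309% of all genes tested. Of 42 NF-κB target genes, 35 could be tested and 5 met the first conditions of the rule. With JSH-23, 23 of the 35 fell and 2 rose in *Arid1a* KO tumors (median -1.02), and 14 fell and 2 rose in WT tumors (median -0.60). The chemokine *Cxcl2*, for instance, was at 63.0 and 64.7 CPM in *Arid1a* KO with vehicle and 8.68 and 9.06 CPM with JSH-23. The level of *Cxcl2* in *Arid1a* KO with JSH-23 lay below the 13.5 and 11.8 CPM of WT with vehicle. It remained above the 2.92 and 3.90 CPM of WT with JSH-23. Of 12 AP-1 and ATF factors, 11 could be tested and 4 were raised by the first conditions, and 7 of the 11 fell and 1 rose with JSH-23 in *Arid1a* KO tumors. Of 15 hypoxia genes, 14 could be tested and 4 were raised, and 2 fell in *Arid1a* KO tumors. All 23 SWI/SNF subunits tested lay outside the raised genes.

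The members were unevenly spread over the chromosomes, a feature the rule did not use. Chromosome 11 held 11 of the 38 members (28.9%), beside 65 of the 408 other raised genes (15.9%) and 8.78% of all genes tested. With 2-fold in both clauses of the rule it held 1 of 10, near the share of all genes tested. The 11 were *Hba-a1*, *Uqcrq*, *Aspa*, *Ngfr*, *Grb7*, *Krt19*, *Tubg1*, *1810010H24Rik*, *2610035D17Rik*, *Slc16a3* and *Zfp750*, from 32283672 for the start of *Hba-a1* to 121519342 for the end of *Zfp750* (GRCm38). The nearest pair, *Slc16a3* and *Zfp750*, were 551976 bases apart with 10 tested genes between them, so the members did not form a single cluster. All 1222 genes tested on chromosome 11 had a median *Arid1a* KO against WT log2 fold change of 0.11, with vehicle and with JSH-23 alike, and each of its 13 intervals of 10 Mb had a median above 0 in both arms (0.06 to 0.17 and 0.07 to 0.35). Chromosome 13 held no member and 4 other raised genes, and its 520 tested genes had a median of -0.27 in both arms. On every other autosome the median lay between -0.05 and 0.06. The part of these chromosome-wide shifts in the members' values was not tested.

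**Figure D5:**
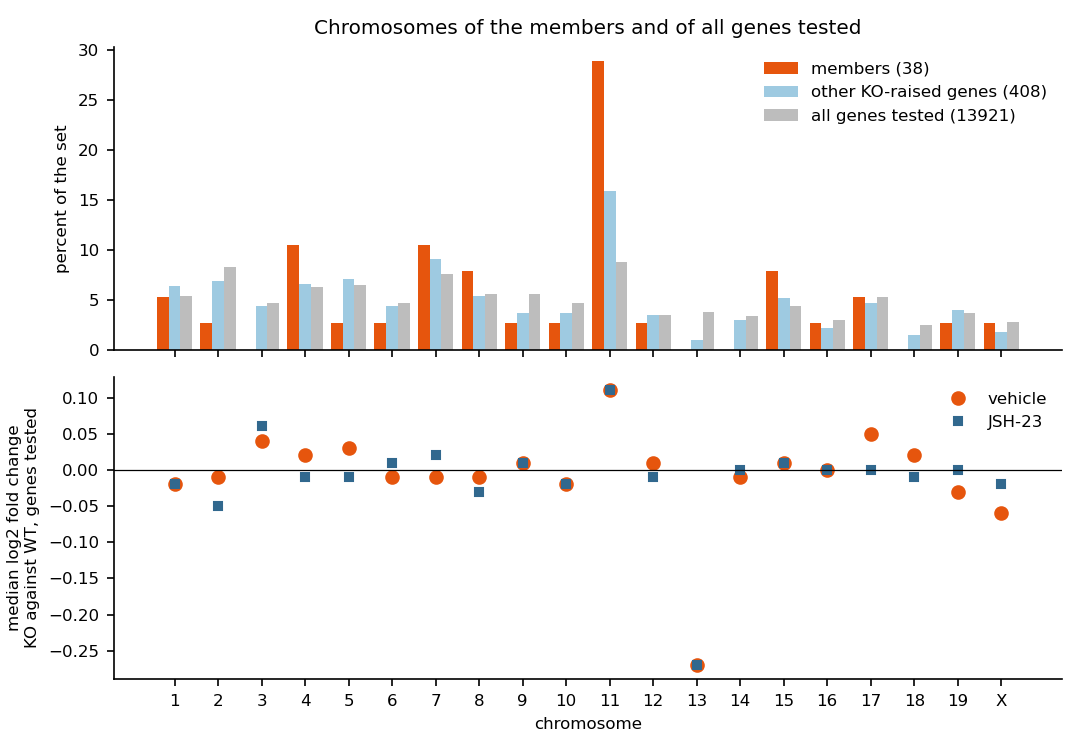
Upper panel, percent of the 38 members, the 408 other raised genes and all 13921 genes tested on each chromosome; lower panel, median log2 fold change of *Arid1a* KO against WT over the genes tested on each chromosome, with vehicle (circles) and JSH-23 (squares). Chromosome 11 has 28.9% of the members and a median of 0.11 in both arms, and chromosome 13 no member and a median of -0.27.

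RefSeq promoter sequences (GRCm38.p6, 250 bases before to 50 after the start) were held for 29 members, 314 other raised genes and 11001 genes tested. *Zfp750*, *Grb7*, *Ehf*, *Krt19*, *Tubg1*, *Gm35340*, *Uqcrq*, *Hoxc6* and *Mgp* were not among them. The RefSeq start lay within 100 bases of that of the gene models for 22 of the 29. The counts below include the promoters farther away, up to 53012 bases for *Macc1*. They were not repeated without these, and the distance was not counted for the comparison sets. The members' promoters held few CpG dinucleotides, with a median of 8 beside 20 for both comparison sets, and 12 (41.4%) had 5 or fewer, beside 14.6% of the other raised genes and 13.6% of all tested. The letters TATAAA, the core of the TATA box that positions transcription initiation, occurred on either strand in 9 (31.0%), beside 11.8% and 7.71%. On the gene's own strand and starting 25 to 35 bases before the start, a window set after the matches were seen, they occurred in 5 (17.2%), beside 3.5% and 1.11%.

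The 250 bases before the start of these 5 genes are shown because they share the TATAAA at that distance, while their responses to JSH-23 in *Arid1a* KO tumors differed: *Crisp1* and *2610035D17Rik* rose, *Plet1* fell, and *Cxcl15* and *Mt4* passed in neither direction. Capitals mark TATAAA in each, TGATTCA (AP-1) in *Plet1* and CCGCCC (a GC box on the other strand) in *2610035D17Rik*. The shorter CCAAT box, also found in *Plet1* and *2610035D17Rik*, is left in lower case.
*Crisp1* (chr17:40319208-40319457, minus strand): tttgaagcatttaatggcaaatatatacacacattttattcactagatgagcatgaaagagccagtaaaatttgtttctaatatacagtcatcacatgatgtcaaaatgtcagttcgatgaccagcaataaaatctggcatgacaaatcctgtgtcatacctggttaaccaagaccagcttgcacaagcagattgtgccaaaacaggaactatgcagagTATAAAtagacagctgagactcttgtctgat
*Cxcl15* (chr5:90794284-90794533, plus strand): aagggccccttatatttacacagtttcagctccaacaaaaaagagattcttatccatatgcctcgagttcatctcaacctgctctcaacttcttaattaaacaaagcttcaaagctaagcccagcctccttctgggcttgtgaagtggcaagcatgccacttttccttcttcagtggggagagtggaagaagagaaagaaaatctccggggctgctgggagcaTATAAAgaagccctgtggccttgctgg
*Mt4* (chr8:94136954-94137203, plus strand): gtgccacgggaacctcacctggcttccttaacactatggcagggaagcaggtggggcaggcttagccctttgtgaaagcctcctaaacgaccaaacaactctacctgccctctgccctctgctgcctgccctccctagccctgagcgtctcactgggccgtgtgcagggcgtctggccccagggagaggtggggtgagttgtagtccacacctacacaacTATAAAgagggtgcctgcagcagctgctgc
*Plet1* (chr9:50494275-50494524, plus strand): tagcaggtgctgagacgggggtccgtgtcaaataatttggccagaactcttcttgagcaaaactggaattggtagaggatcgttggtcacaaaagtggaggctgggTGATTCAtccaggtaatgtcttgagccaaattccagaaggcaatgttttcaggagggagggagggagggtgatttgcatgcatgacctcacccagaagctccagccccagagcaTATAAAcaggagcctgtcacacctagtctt
*2610035D17Rik* (chr11:113201839-113202088, minus strand): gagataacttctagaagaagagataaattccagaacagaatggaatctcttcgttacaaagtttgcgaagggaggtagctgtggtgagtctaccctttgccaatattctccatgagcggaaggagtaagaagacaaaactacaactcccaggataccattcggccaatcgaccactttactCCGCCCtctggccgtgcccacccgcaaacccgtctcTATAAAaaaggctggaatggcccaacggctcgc

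Other motifs were searched in the same way on both strands of all 300 bases, where the antioxidant response element core can overlap AP-1. The κB motif, the binding sequence of NF-κB, was found in 1 of the 29 (3.45%), *Igfbp5*, beside 11.1% of the other raised genes and 9.84% of all tested. The AP-1 motif TGANTCA was found in 3 (10.3%; beside 7.96% and 5.52%), the CCAAT box CCAAT in 7 (24.1%; 46.5% and 39.2%), the GC box GGGCGG in 15 (51.7%; 59.6% and 60.7%), the E-box CACGTG in 1 (3.45%; 6.37% and 10%), the ETS motif CCGGAAGT in 2 (6.90%; 7.96% and 8.10%), the antioxidant response element core TGACNNNGC in 4 (13.8%; 17.2% and 14.6%) and the cyclic AMP response element TGACGTCA in 0 (6.69% and 3.10%). The *Igfbp5* promoter is shown for its κB motif, in capitals, the match among the members, and *Igfbp5* fell with JSH-23 to 49.3% of its difference in *Arid1a* KO tumors.
*Igfbp5* (chr1:72874866-72875115, minus strand): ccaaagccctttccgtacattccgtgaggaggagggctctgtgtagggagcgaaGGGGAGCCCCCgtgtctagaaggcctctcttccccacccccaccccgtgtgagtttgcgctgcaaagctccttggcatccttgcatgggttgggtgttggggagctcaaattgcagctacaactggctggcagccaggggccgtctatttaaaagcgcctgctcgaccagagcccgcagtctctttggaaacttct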

How the data were processed

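RNA-seq of sorted Myc-CaP tumor cells was analysed for 4 groups of 2 samples assigned from the sample titles. The authors deposited whole-number read counts per gene without normalization, and TPM values derived from them by a calculation not given in the sources used here. The study's methods name TopHat2 on GRCm38/mm10 with the best match per read and strand-specific counting with HTSeq-count, whereas the submitters' processing notes name HISAT2, HTSeq and DESeq2, so the aligner is uncertain. Keeping 1 match per read leaves the split of reads between near-identical paralogs uncertain.

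CPM was computed from all counts of a sample. The counts of all 8 samples entered edgeR's quasi-likelihood test with 1 coefficient for each group (edgeR version 4.0.16, R version 4.3.3), on the 13921 of 39089 genes that passed filterByExpr, scaled with TMM factors between 0.947 and 1.03. All 38 members passed this filter, which their level in *Arid1a* KO tumors ensured. Calls required 1.5-fold and a Benjamini-Hochberg adjusted p under 0.05 over all genes tested. Shares of the difference kept used log2(CPM + 0.5). Counts of 3 or fewer were taken as not told from 0, a limit that covers counting error only. The test was checked on simulated counts.

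The members and gene lists were chosen with earlier results of these data known. Named genes were *Arid1a*, the 10 members with the largest lowest-*Arid1a*-KO to highest-WT ratio, the 8 highest in *Arid1a* KO with JSH-23, the 5 most positive and 5 most negative JSH-23 changes in *Arid1a* KO, members on a list, and the 3 genes on either side of the limit. Other members were named by role, a grouping made after their values were seen. Alternatives were DESeq2 1.42.0, library size scaling, a minimum of 10 counts in every sample, no filter, a replicate block, limma 3.58.1 on log2(TPM + 1), an unadjusted p, a test against 1.5-fold, a fixed coefficient of variation of 10%, only the groups compared, other units, floors and folds of the rule, another pseudocount, and leaving out each sample. Promoters were RefSeq sequences (GRCm38.p6), matched by symbol.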

Additional observations from a re-analysis of the deposited data

Results flagged for a closer look

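Among the 38 members, 2 moved in opposite directions with JSH-23 in the 2 genotypes with no overlap between samples, although neither passed the criterion in either genotype. Such cases were not counted over all genes tested, so the 2 do not set the members apart. *Palld*, an actin-bundling protein, was at 19.5 and 21.2 CPM in WT tumors with vehicle and 18.4 and 17.9 CPM with JSH-23, while *Arid1a* KO tumors had 34.7 and 35.8 CPM with vehicle and 36.2 and 37.2 CPM with JSH-23, a difference between the genotypes' log2 fold changes of 0.33. *Gm15246* was at 2.34 and 1.96 CPM with vehicle and 3.54 and 2.68 CPM with JSH-23 in WT tumors, and at 7.35 and 6.88 CPM with vehicle and 5.68 and 5.83 CPM with JSH-23 in *Arid1a* KO tumors, a difference of -0.73. These differences were not tested, since both contrasts entered the choice of the members. With 2 samples a group, outlying samples within a group were not examined.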

How the results depend on the processing

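The rule gave 38 genes, 42 (36 shared) with TMM-scaled CPM, 74 with a floor of 1 CPM, 77 with 1.3-fold and 10 with 2-fold in both clauses, and 37 to 43 when a sample was left out. The median share kept was 91.9%, 101% with TMM-scaled CPM, 80.8% with TPM, and 86.4% to 95.6% when a sample was left out. The 5 members called higher with JSH-23 in *Arid1a* KO tumors became 2 with library size scaling, with limma on TPM and in the test against 1.5-fold. In that order, 6.08%, 2.92% and 5.09% of all genes tested were then higher, beside the 9.57% given above. The median log2 fold change of 0.03 became -0.09 with library size scaling and -0.21 with limma on TPM, where the medians of all genes moved to -0.13 and -0.20, and was -0.07 to 0.08 when a sample was left out. In WT tumors the 5 called lower became 3, and the 6 called higher became 1, in the test against 1.5-fold. By that test, 4.06% of all genes tested were lower and 1.70% higher in WT tumors, beside the 10.2% and 5.70% given above. The lower calls lost were *Ehf* and *Plet1*, and the higher calls lost were *2610035D17Rik*, *Aspa*, *Bcl6*, *F5* and *Klk6*. The 6 became 3 with limma on TPM, where *Aspa*, *Bcl6* and *F5* were lost and 3.22% of all genes tested were higher. Leaving out a WT sample changed which members were called in WT tumors, and the number lower rose only without WT JSH-23 sample 2. Each such fit left a group without a replicate, so its counts are not given. The cause of these shifts was not tested. Leaving out an *Arid1a* KO sample with vehicle (sample 2) removed *Aspa* and *Gm35340* from the members. The 8 called lower in *Arid1a* KO were 6 with at least 10 counts in every sample, where *Otog* and *Gm35340* could not be tested. They were 11 with limma on TPM, where *Hba-a1*, *Mt4* and *Zfp750* were added. Of all genes tested, 14.4% and 19.9% were lower in these 2 settings, beside the 16.6% given above.

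With the replicate number as a block, 8 members were lower and 5 higher in *Arid1a* KO and 5 lower and 6 higher in WT tumors. Of all genes tested, 16.5% were then lower and 9.53% higher in *Arid1a* KO, and 10.1% lower and 5.67% higher in WT tumors. Samples with the same number did not deviate together (correlations -0.0964 to 0.0401), so the numbers were not taken to pair samples. Chosen after seeing the data, the count on chromosome 11 was 10 to 12 when a sample was left out, 6 of 28 with TPM and 1 of 10 with 2-fold. The median of its genes relative to all genes was 0.09 to 0.11 with vehicle and 0.04 to 0.12 with JSH-23 over the fits on 8 samples.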
